A study of Mus musculus with 4 samples.

Results

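Interferon-stimulated genes (ISGs) are the genes that a cell turns on after an interferon binds its receptor. A list of 38 mouse ISGs, chosen by symbol, was followed through the immune cells of the spinal cord before and after spinal cord injury (SCI). Of these 38 genes, 37 had a row among the 31053 features of the count matrices. Mx2 had no row and was not analysed here.

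The cells were sorted for CD45, the surface protein of nucleated blood cells, from spinal cords of C57BL/6 mice of both sexes at 3 months of age, and were captured singly for 10x Genomics 3′ sequencing in 4 libraries. Cords were taken after a laminectomy alone (sham, day 0), or 3 or 14 days post-injury (dpi) after a thoracic contusion. Actinomycin D (ActD), a drug that blocks transcription, was present during dissociation for 1 sham library (ActD sham) and for both injured libraries, and was absent for the other sham library (standard sham). Each group was 1 library, and each library held male and female cells and therefore more than 1 mouse, so no value below has a replicate check, no p-value was computed, and intervals cover counting error only.

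After filtering, the libraries held 5141 (standard sham), 2143 (ActD sham), 8404 (3 dpi) and 9444 (14 dpi) cells, with medians of 7498 to 9663 unique molecular identifiers (UMIs, 1 per captured RNA molecule) per cell. Pairs of libraries shared between 3 and 36 cell barcodes. A UMI of Ptprc, which encodes CD45, was found in 84.1% to 94.9% of cells. By their file headers, Cell Ranger 3.1.0 made the 14 dpi and ActD sham matrices and Cell Ranger 3.0.1 the other two.

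Type I interferons bind the receptor pair IFNAR1 and IFNAR2, whose kinases JAK1 and TYK2 phosphorylate STAT2 among others. STAT2 and IRF9 are part of a complex that binds the interferon-stimulated response element (ISRE) in ISG promoters. Interferon gamma, made mainly by T cells and natural killer (NK) cells, signals through another receptor to a partly shared set of genes. In the central nervous system, microglia and infiltrating myeloid cells are known to take on an ISG-rich state in infection, ageing and injury.

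The promoters of the members were set beside all promoters, the members included, to describe the list. The list was chosen as ISGs, so an excess of ISRE matches follows from that choice. It does not bear on the direction of the members in these data. RefSeq windows of 300 bases on build GRCm38.p6 (250 before to 50 after each start of transcription) were found for 28 of the 37 members, which have 33 such windows. The ISRE-like motif, GAAA repeated after a gap of 2 bases on either strand, was in 17 of the 33 member windows (51.5%), beside 3.43% of all 32817 windows. The longer form, which ends in CT and overlaps the short one, was in 33.3% of member windows and 0.271% of all windows. A match is a description of the sequence, not a measured binding site. By gene, 16 of the 28 members held the ISRE-like motif, and Ifit2 and Irf9 are among those that held none. Stretches of 60 bases follow, read 5′ to 3′ on the strand of the gene. They come from 6 members that hold a match upstream and whose values recur below, with the bases of ISRE-like matches in capitals:
Ifit1 (chr19:34640779-34640838, plus strand): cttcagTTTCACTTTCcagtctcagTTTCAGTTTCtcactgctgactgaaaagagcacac
Ifit3 (chr19:34583382-34583441, plus strand): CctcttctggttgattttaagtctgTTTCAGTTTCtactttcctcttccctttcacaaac
Isg15 (chr4:156200850-156200909, minus strand): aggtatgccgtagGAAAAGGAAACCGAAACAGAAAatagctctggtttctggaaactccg
Oas3 (chr5:120777700-120777759, minus strand): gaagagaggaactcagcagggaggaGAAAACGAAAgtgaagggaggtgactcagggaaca
Rsad2 (chr12:26456538-26456597, minus strand): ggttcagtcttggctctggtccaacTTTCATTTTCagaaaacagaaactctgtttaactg
Bst2 (chr8:71537562-71537621, minus strand): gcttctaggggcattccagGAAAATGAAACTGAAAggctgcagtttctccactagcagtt
In Isg15 and Bst2 the matches overlap into 1 longer run. The single capital that opens the Ifit3 stretch closes a match that begins before it. Each stretch lies upstream of the start of transcription in the reference.

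Cells were clustered and named from marker genes, so each class below is a class-like group rather than a sorted type. In all, 21546 of 25132 cells fell into 10 classes that were named with at least 20 cells at both 3 and 14 dpi: microglia, border macrophages (the resident macrophages of meninges and vessels), injury macrophages (Arg1, Gpnmb and Fn1 among their markers), monocytes, neutrophils, migratory dendritic cells (DCs), plasmacytoid DCs, T cells, NK cells and B cells. Microglia, border macrophages, monocytes, neutrophils and B cells were also named in both sham libraries. A further 2358 cells had no name. Levels are given as CPM (counts per 1000000), the UMIs of a gene or of all members in that class and library scaled to 1000000 UMIs. Where 4 values follow each other they stand in the order standard sham, ActD sham, 3 dpi and 14 dpi. T cells lacked the ActD sham value and so have 3, and classes not named in the shams have 2, for 3 and 14 dpi.

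The summed level of the 37 members was higher at 14 dpi than at 3 dpi in all 10 classes. In microglia the sum was 778, 2726, 1067 and 3016 CPM. In border macrophages it was 2009, 6696, 1520.02 and 5334 CPM. With both sexes together, the ActD sham and 14 dpi libraries were thus high and the standard sham and 3 dpi libraries low in both resident classes. Male microglia alone held 796, 1061, 1027 and 1752 CPM and female microglia 745, 4170, 1361 and 4369 CPM. Male border macrophages held 2089, 2527, 1453 and 3636 CPM and female ones 2007, 8931, 1100 and 7730 CPM. The high ActD sham level was therefore mostly that of female cells.

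Monocytes held 3734, 12996 and 1479 CPM in the standard sham, ActD sham and 3 dpi libraries and 10739 CPM at 14 dpi, the widest range of the resident and infiltrating myeloid classes. The ActD sham value came from 24 monocytes, with Ace, Nr4a1 and Treml4 among their leading genes. Monocyte markers summed to 8691 CPM and injury macrophage markers to 681 CPM in those cells. In the 3 dpi class the same markers summed to 3899 and 18351 CPM, so the class differed in make-up between libraries. The part of this in the range was not tested. Neutrophils held 1409.67, 8609 and 1130.06 CPM and then 2827 CPM. Injury macrophages had 860.2 CPM at 3 dpi and 2454 CPM at 14 dpi.

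Lymphocytes and DCs were lower than monocytes at 14 dpi and ordered the same way between the injured libraries. T cells had 831, 1788 and 5729 CPM in the standard sham, 3 dpi and 14 dpi libraries. NK cells had 842 and 2497 CPM. B cells had 1408, 7059, 761 and 1381 CPM, so their 14 dpi level lay close to the standard sham and far under the ActD sham. Migratory DCs had 1192 and 3746 CPM. Plasmacytoid DCs, which are known as the body's strongest producers of type I interferon, had 4679 CPM from 23 cells and 7703 CPM from 41 cells.

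**Figure D1:**
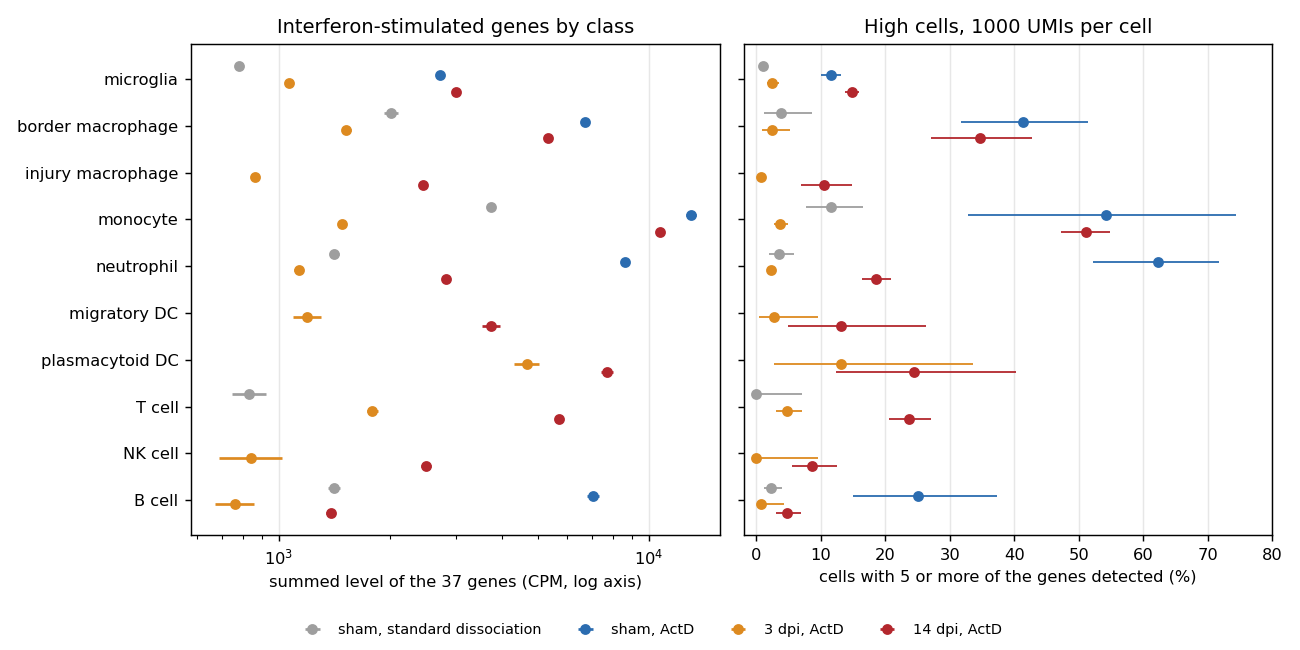
Summed level of the 37 members (CPM of the class, log axis) in each of the 10 classes, with 1 point per library and 95% Poisson intervals, and beside it the share of high cells (percent), with 5 or more members detected at 1000 UMIs per cell, and 95% Clopper-Pearson intervals, both covering counting error only. At 14 dpi every class lies above its own 3 dpi point, and in 4 of the 5 classes named in every library the ActD sham and 14 dpi points lie above the standard sham and 3 dpi points.

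The same 2 pairs of libraries also differ in software version. In 4 of the 5 classes named in every library, both libraries made with Cell Ranger 3.1.0 were above both made with 3.0.1, and B cells were the exception. Version, library and time point cannot be told apart from these data. No class should lack ISGs, so no class measured how many of their UMIs came from free RNA.

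Cells with many members detected were counted after each cell was thinned to 1000 UMIs, and a high cell is one with at least 5 members detected. Among microglia, 1.07% (95% Clopper-Pearson interval 0.702% to 1.57%), 11.5% (10.02% to 13.2%), 2.39% (1.59% to 3.44%) and 14.8% (13.7% to 15.9%) were high. Monocytes had 11.6%, 54.2%, 3.72% and 51.1%, border macrophages 3.76%, 41.3%, 2.42% and 34.6%, and neutrophils 3.5%, 62.4%, 2.27% and 18.6%. High cells were thus a minority of microglia in every library and about as many as the others among monocytes of the ActD sham and 14 dpi libraries.

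T cells had 0 high cells of 50 in the standard sham, which allows a share of up to 6.00%, then 4.75% (3.07% to 6.99%) at 3 dpi and 23.7% (20.6% to 27.1%) at 14 dpi. NK cells had 0 of 37 at 3 dpi, which allows up to 8.11%, and 8.55% (5.50% to 12.6%) at 14 dpi. B cells had 2.28%, 25%, 0.769% and 4.67%. Migratory DCs had 2.74% and 13%, plasmacytoid DCs 13% and 24.4%, and injury macrophages 0.781% and 10.4%. Intervals at 3 and 14 dpi overlapped in both DC classes, in NK cells and in B cells (0.0195% to 4.21% and 2.99% to 6.93%). Over 10 other draws of the thinning, high microglia made up 1.88% to 2.13% at 3 dpi and 14.3% to 15.3% at 14 dpi, and plasmacytoid DCs 0% to 21.7% and 7.32% to 26.8%.

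The strongest cells carried 10 or more members. They made up 23.9% of monocytes, 8.88% of neutrophils, 7.18% of T cells, 6.54% of border macrophages and 1.61% of microglia at 14 dpi, and between 0% and 1.19% of each of these classes at 3 dpi. Without thinning, the shares of high microglia were 32.3%, 72.2%, 58.9% and 81.5%, and those of neutrophils 51.0%, 90.1%, 8.87% and 48.0%. Median depth was 2294.5 UMIs for neutrophils at 3 dpi and 5156.5 at 14 dpi, and 14713.5 and 10924.5 UMIs for microglia.

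**Figure D2:**
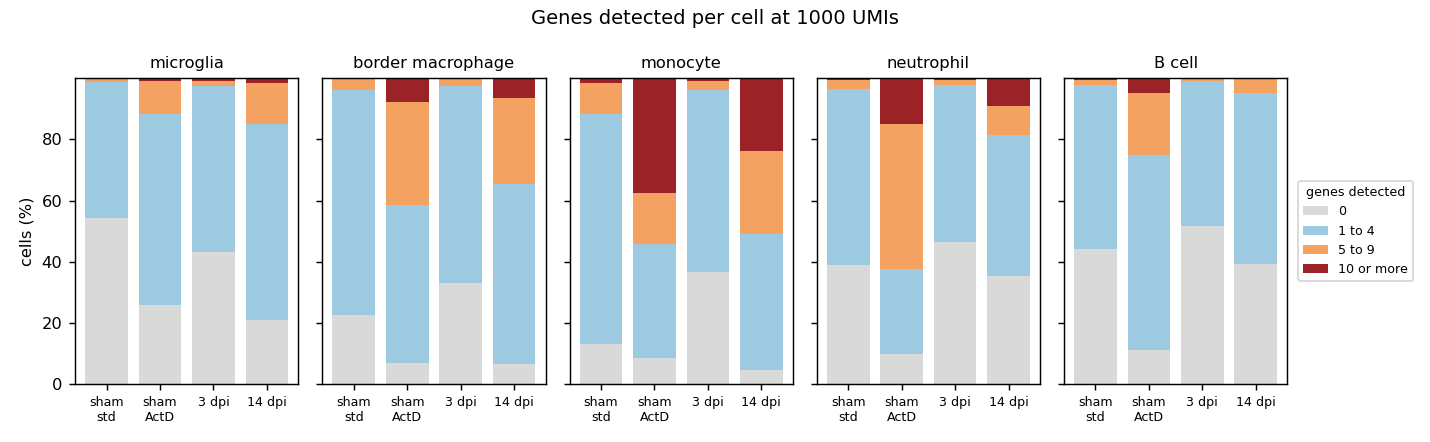
Share of cells (percent) by the number of members detected after thinning each cell to 1000 UMIs, for the 5 classes named in every library. High cells, with 5 or more members, reach 51.1% of monocytes at 14 dpi and 3.72% at 3 dpi.

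To ask which members differed between 3 and 14 dpi, the log2 ratio of each member was centred on the median of all genes with at least 20 UMIs in that class, after adding 0.5 UMIs to each sum, and a gene past a 2-fold difference was called higher or lower. In microglia, 33 of 37 members were called higher and 0 lower at 14 dpi, while 10.9% of all genes tested were called higher and 15.1% lower. The median member differed by 1.48 and the summed level by 2.83-fold (95% interval 2.79 to 2.87). In monocytes 36 of 37 were higher and 0 lower (all genes 11.8% and 14.6%), with a median of 2.49 and a sum 7.26-fold higher (7.14 to 7.39). The 10 monocyte markers summed to 3899 CPM in this class at 3 dpi and 12154 CPM at 14 dpi, and the 8 injury macrophage markers to 18351 and 1467 CPM, so the 3 dpi class carried more of the latter than of its own. Their part in the ratio was not tested. In border macrophages it was 35 of 37 and 0 (all genes 10.6% and 10.9%), with a median of 1.99 and a sum 3.51-fold higher (3.38 to 3.64).

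In injury macrophages 29 of 36 members tested were higher and 0 lower (all genes 13.5% and 13.4%), and the median was 1.61. In neutrophils 31 of 35 were higher and 0 lower (all genes 19.5% and 20.7%), and the median was 2.17. The median of all genes was itself -1.14 in neutrophils, and without centring 19 members were higher and 1 lower. Neutrophils thus held the largest gap between centred and plain values of the 10 classes.

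T cells had 25 of 37 members higher and 0 lower (all genes 4.62% and 7.87%), with a median of 1.21. NK cells had 22 of 34 higher and 0 lower (all genes 11.8% and 10.2%), with a median of 1.23 from 37 cells at 3 dpi. Migratory DCs had 20 of 24 and 0 (all genes 7.95% and 10.4%), with a median of 1.53. Plasmacytoid DCs had 2 of 12 and 0 (all genes 8.72% and 6.86%), with a median of 0.54. B cells had 4 of 25 higher and 2 lower (all genes 18% and 16.4%), with a median of -0.12, so their members lay on both sides of all genes. Without the B cell cluster of precursors described below, 12 of 22 were higher and 0 lower (all genes 9.08% and 10.3%), with a median of 1.06. A member with 0 UMIs in 1 library has no measured ratio. Set at the bound that a floor of 3 UMIs over the class allows, the 10 such members of NK cells left 14 past 2-fold with a median of 0.79, and the 2 such members of B cells left 2.

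**Figure D3:**
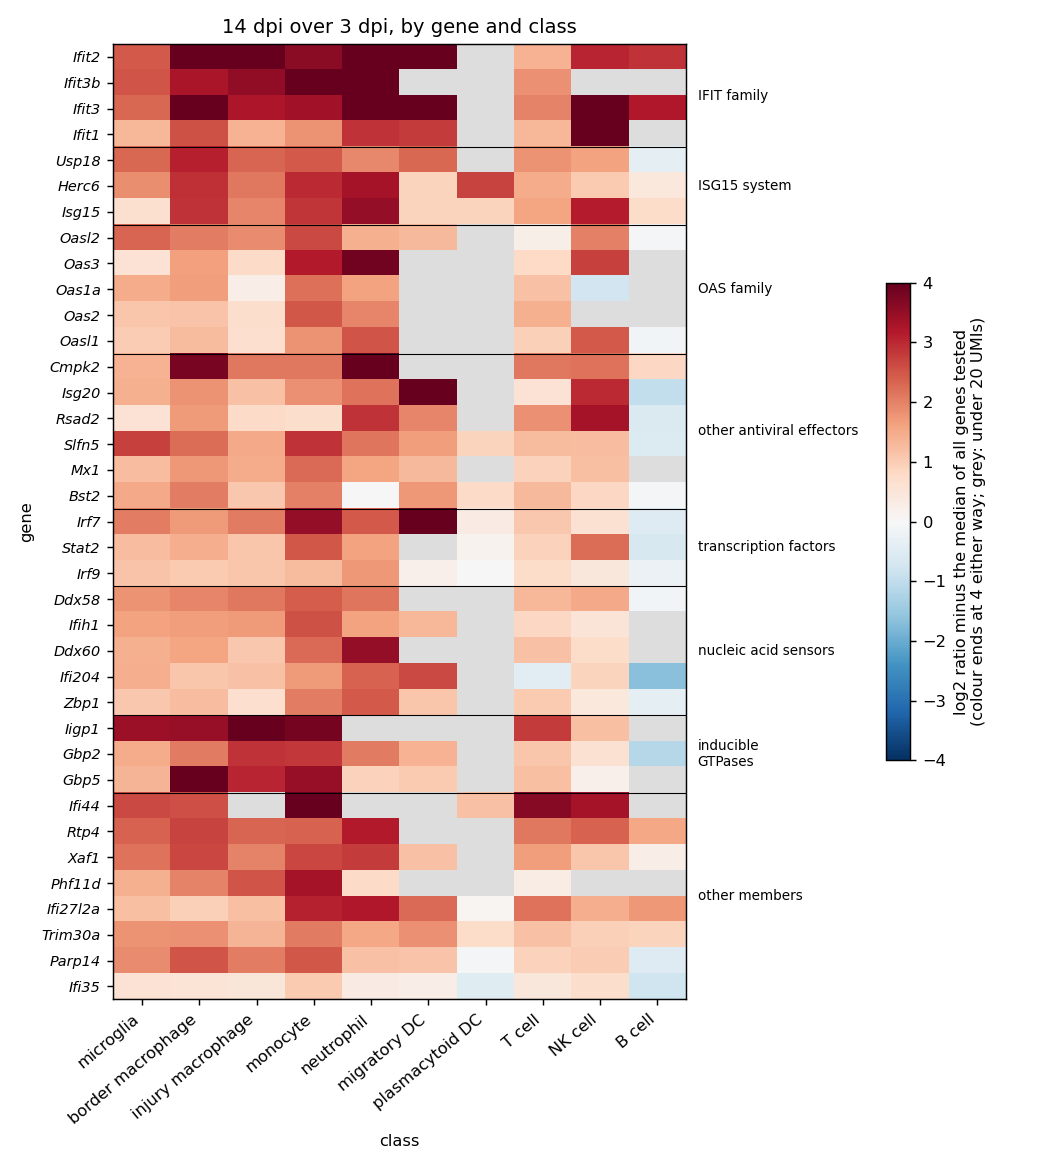
Centred log2 ratio of each of the 37 members (rows of the grid, grouped by role), 14 over 3 dpi, in each of the 10 classes, from blue (lower) to red (higher), with grey where a member had under 20 UMIs. The columns of 8 classes are mostly red, with medians from 1.21 to 2.49, and B cells hold both colours around a median of -0.12.

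The IFIT proteins bind viral RNA that lacks the host's cap marks. Each IFIT member tested was called higher at 14 dpi in the 9 classes with any tested, although in B cells and for some of the NK cell genes the call rests on 0 UMIs at 3 dpi. Among all genes between 4.62% (T cells) and 19.5% (neutrophils) were called higher in those classes. Ifit2 in border macrophages was 3.23, 102, 2.45 and 78.2 CPM, a log2 ratio of 4.99 (95% interval 3.96 to 6.24) and 4.75 after centring. Ifit3 in border macrophages was 14.0, 288, 3.68 and 139 CPM (centred 5.03). Both genes stood highest in the ActD sham and next at 14 dpi.

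Neutrophils repeated that order, with Ifit2 at 3.86, 69.7, 3.13 and 36.9 CPM (centred 4.65) and Ifit3 at 11.3, 185, 8.26 and 99.6 CPM (centred 4.71). In injury macrophages Ifit2 was 2.29 and 46.8 CPM (centred 4.21) and Ifit3b 0.816 and 10.6 CPM (centred 3.56). Ifit3b in monocytes was 5.92, 93.7, 2.22 and 52.3 CPM (centred 4.26). Ifit3 and its neighbour copy Ifit3b share a run of at most 45 identical bases in their last 500, so most 3′ reads could be told apart.

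In migratory DCs Ifit2 was 4.46 and 146 CPM (2 and 50 UMIs) and Ifit3 4.46 and 128 CPM (2 and 44 UMIs). Ifit1 in NK cells was 0 and 111 CPM, at least 4.58-fold higher against a floor of 3 UMIs over the class, and Ifit3 was 0 and 81.3 CPM, at least 3.35-fold higher. B cells also had 0 UMIs at 3 dpi, with Ifit2 at 3.82, 85.8, 0 and 11.9 CPM (at least 1.39-fold) and Ifit3 at 8.59, 147, 0 and 14.9 CPM (at least 1.74-fold). In B cells the 14 dpi level of both lay far under the ActD sham.

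Isg15 encodes a ubiquitin-like protein, Herc6 a ligase that attaches it and Usp18 a protease that removes it and damps the receptor. Isg15 was called higher in 6 of the 10 classes in which it was tested, and Herc6 and Usp18 in 8. Isg15 was among the members with most UMIs in neutrophils, at 151, 725, 67.6 and 349 CPM (centred 3.5), in T cells, at 38.4, 99.7 and 335 CPM (centred 1.58), and in migratory DCs, at 154 and 303 CPM (centred 0.91). Herc6 in plasmacytoid DCs was 7.08 and 75.6 CPM from 1 and 24 UMIs and in migratory DCs 57.9 and 114 CPM (centred 0.89). Isg15 carries 3 overlapping ISRE-like matches in the stretch above, and the Herc6 window held none.

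The OAS enzymes make the small RNA that activates RNase L, and the Oasl proteins are their relatives. The group was unevenly higher at 14 dpi: 5 of 5 were called in border macrophages, monocytes and neutrophils, 4 of 5 in microglia, 2 of 5 in T cells and 1 of 5 in injury macrophages. Among all genes 10.6%, 11.8%, 19.5%, 10.9%, 4.62% and 13.5% were called higher in these classes, in that order. The 1 of 5 in injury macrophages was thus near the share of all genes. Oas3 in microglia was 0.0525, 0.679, 2.99 and 4.48 CPM (centred 0.57). Its 3 dpi level was above both shams there, unlike the IFIT genes. Oasl2 in T cells was 2.40, 22.8 and 30.2 CPM (centred 0.23), and Oasl1 in injury macrophages 3.88 and 6.68 CPM (centred 0.67).

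Oas1a was 12.7 and 16.6 CPM in injury macrophages (centred 0.26) and 16.2 and 12 CPM in NK cells (centred -0.76, 2 and 18 UMIs). It shares a run of 146 identical bases with Oas1g in the last 500, so its counts are uncertain.

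Among the other antiviral effectors, Rsad2 encodes viperin, which makes a chain-ending nucleotide, Cmpk2 the mitochondrial kinase beside it on the chromosome, Bst2 tetherin, which holds budding virus at the membrane, Isg20 an exonuclease and Slfn5 a member of the schlafen family. Bst2 was tested in all 10 classes and called higher in 6. It was 152, 361, 203 and 576 CPM in microglia (centred 1.5), 476, 1172, 198 and 906 CPM in border macrophages (centred 2.04) and 265, 546, 132 and 646 CPM in monocytes (centred 2.02). The resident and monocyte classes thus put 14 dpi above 3 dpi and near or above the ActD sham.

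Bst2 was 280.4 and 647 CPM in injury macrophages, 132 and 458 CPM in migratory DCs, 137, 154 and 429 CPM in T cells and 129.6 and 245 CPM in NK cells, with centred ratios of 1.07, 1.72, 1.30 and 0.83. In plasmacytoid DCs, of which BST2 is a surface marker, it reached 2470.2 and 4696 CPM (centred 0.78), the most of any class. Neutrophils and B cells did not share the difference, with 46.6, 123, 87.3 and 39.9 CPM (centred 0.01) and 85.0, 367, 91.6 and 100.2 CPM (centred -0.09).

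Cmpk2 in neutrophils was 18.7, 132, 4.24 and 53.2 CPM, the largest centred ratio of that class (4.75). Slfn5 was 16.3, 107, 25.3 and 169 CPM in microglia (centred 2.73) and 56.6 and 123 CPM in plasmacytoid DCs (centred 0.90). Rsad2 was among the smallest ratios in microglia, at 6.14, 15.7, 22.9 and 34.4 CPM (centred 0.59), and in monocytes, at 47.3, 124, 60.3 and 119 CPM (centred 0.71). Rsad2 in microglia was higher at 3 dpi than in either sham, as Oas3 was. Isg20 in B cells was 9.55, 121, 14.3 and 8.95 CPM (5 and 30 UMIs at 3 and 14 dpi).

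The transcription factors of the list are Irf9 and Stat2, parts of the complex that binds the ISRE, and Irf7, which amplifies interferon production. In microglia, border macrophages, injury macrophages, monocytes and neutrophils all 3 were called higher, beside 10.9%, 10.6%, 13.5%, 11.8% and 19.5% of all genes. Irf9 had its largest centred ratio in neutrophils, at 45.4, 97.5, 36.6 and 55.8 CPM (centred 1.74), where the median of all genes was itself -1.14. It was 40.9, 102, 36.5 and 84.0 CPM in border macrophages (centred 1.04) and 50.5, 79.9, 32.3 and 94 CPM in monocytes (centred 1.27). In plain CPM it thus differed more in monocytes and border macrophages than in neutrophils. In the DC classes Irf9 was 53.5 and 64.2 CPM (migratory, centred 0.19) and 84.9 and 97.7 CPM (plasmacytoid, centred 0.02). Irf7 in migratory DCs was 4.46 and 105 CPM (centred 4.19, 2 and 36 UMIs). Irf9 thus differed less than Irf7 in migratory DCs.

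The nucleic acid sensors Ifih1 (MDA5) and Ddx58 (RIG-I) detect viral RNA, Ddx60 is a relative that aids them, Zbp1 binds Z-form nucleic acid and Ifi204 binds DNA. All 5 were called higher in microglia, border macrophages, monocytes and neutrophils, beside 10.9%, 10.6%, 11.8% and 19.5% of all genes. Ifi204 was 36.2, 159, 69.5 and 192 CPM in microglia (centred 1.46), 212, 498, 126 and 300.5 CPM in border macrophages (centred 1.10), 57.1 and 141 CPM in injury macrophages (centred 1.17) and 216, 620.2, 139 and 547 CPM in monocytes (centred 1.70). Lymphocytes did not follow, with Ifi204 at 24.0, 31.9 and 26.7 CPM in T cells (centred -0.43) and 2.39, 2.20, 17.2 and 6.56 CPM in B cells (centred -1.67, from 6 and 22 UMIs). Zbp1 in NK cells was 56.7 and 84.0 CPM (centred 0.43).

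Gbp2 and Gbp5, guanylate-binding proteins, and Iigp1, an immunity-related GTPase, attack the vacuoles in which microbes live, and all are strongly driven by interferon gamma. The 3 were called higher in microglia, border macrophages, injury macrophages, monocytes and T cells, beside 10.9%, 10.6%, 13.5%, 11.8% and 4.62% of all genes. Iigp1 was 0.368, 1.81, 1.01 and 11.1 CPM in microglia (log2 ratio 3.45 (95% interval 2.84 to 4.14), centred 3.42), 0.176 and 4.38 CPM in injury macrophages (centred 4.44), 0.910, 143, 1.15 and 20.3 CPM in monocytes (centred 3.81) and 0, 9.61 and 77.6 CPM in T cells (centred 2.81). In microglia Iigp1 at 14 dpi also exceeded the ActD sham, whereas in monocytes it was far under it.

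Gbp5 in border macrophages was 18.3, 20.5, 0.307 and 25.3 CPM, a centred ratio of 5.65 that rests on 1 and 35 UMIs at 3 and 14 dpi. Its level in both shams was close to that at 14 dpi, so the 3 dpi library stood apart. Gbp5 in NK cells was 24.3 and 33.3 CPM (centred 0.20). Gbp2 in B cells was 4.30, 26.4, 14.3 and 8.05 CPM and lower at 14 dpi than at 3 dpi (centred -1.14, 5 and 27 UMIs).

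Ifi27l2a, a small membrane protein whose expression follows type I interferon closely, had the most or nearly the most UMIs of all members in every class. It was 45.5, 539, 264 and 606 CPM in microglia (centred 1.2), 495, 1539.5, 628 and 1374 CPM in border macrophages (centred 0.97) and 1728, 4625, 375 and 3822 CPM in monocytes (centred 3.08). It was 437, 2614, 136 and 577 CPM in neutrophils (centred 3.22) and 129.9 and 329.6 CPM in injury macrophages (centred 1.21). In monocytes and neutrophils the difference was larger than in the resident classes.

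Ifi27l2a in T cells was 214, 417 and 2134 CPM (centred 2.18), in NK cells 64.8 and 194 CPM (centred 1.45) and in B cells 767, 3794, 180.3 and 700.4 CPM (centred 1.75). In migratory DCs it was 86.9 and 440.5 CPM (centred 2.26), and in plasmacytoid DCs 1069 and 1258 CPM (centred 0.08), with little difference between the time points. Without the member that had most UMIs, the sums at 3 and 14 dpi were 803 and 2409.7 CPM in microglia and 1104 and 6917 CPM in monocytes.

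Ifi44, of unknown molecular role, had large ratios from few UMIs: 0.105, 2.32, 0.598 and 3.91 CPM in microglia (centred 2.65), 4.10, 129.6, 1.33 and 36.1 CPM in monocytes (centred 4.44), 2.40, 1.01 and 17.4 CPM in T cells (centred 3.63) and 21.2 and 59.9 CPM in plasmacytoid DCs (centred 1.16). In NK cells Ifi44 was 0 and 42 CPM (at least 1.73-fold). Trim30a, a ubiquitin ligase that damps Toll-like receptor signals, was 57.3, 333, 124 and 166 CPM in neutrophils (centred 1.56), 90.7, 306, 40.1 and 88.0 CPM in B cells (centred 0.89), 89.1 and 187 CPM in NK cells (centred 0.96) and 198 and 372 CPM in plasmacytoid DCs (centred 0.74). Both genes stood higher at 14 dpi in each of these classes.

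Ifi35 was the member with the least difference, called higher in monocytes only, where its centred ratio was 1.05 and its levels 101, 127, 56.7 and 142 CPM. It was 39.1, 83.1, 44.4 and 66.2 CPM in microglia (centred 0.57), 33.4, 83.7, 47.5 and 77.5 CPM in border macrophages (centred 0.55) and 37.9 and 58.0 CPM in injury macrophages (centred 0.48). It was 24.3, 55.5, 49.1 and 28.4 CPM in neutrophils (centred 0.34), 75.8 and 96.3 CPM in migratory DCs (centred 0.28) and 106 and 85.1 CPM in plasmacytoid DCs (centred -0.49). Its levels stayed between 24.3 and 142 CPM in these 7 classes and all libraries.

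Phf11d, which holds a PHD finger, was 2.37, 0.591, 4.02 and 3.14 CPM in neutrophils (centred 0.77) and 0, 5.57 and 7.90 CPM in T cells (centred 0.29), and Parp14, an ADP-ribosyltransferase, 49.5 and 53.6 CPM in plasmacytoid DCs (centred -0.09). Rtp4, a chaperone of G-protein-coupled receptors, was called higher in all 8 classes in which it was tested (centred 1.56 to 3.16), and Xaf1, a partner of the apoptosis inhibitor XIAP, in 8 of 9. Mx1, a GTPase gene, was higher in 7 of 8.

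Breadth over classes differed between the members. Ifit2 and Ifit3 were called higher in 9 classes, 7 members in 8, 9 in 7, 11 in 6, 5 in 5, 2 in 4 and Ifi35 in 1. Among all genes the share called higher lay between 4.62% (T cells) and 19.5% (neutrophils) by class. Where a call at 0 UMIs was kept only if its bound passed 2-fold, Ifit2 was higher in 7 classes, Ifit3 in 8, and 7 other members in 1 class fewer each. Lower calls were limited to Ifi204 and Gbp2, each in B cells. A member was tested in a class only where it had 20 UMIs or more in the pair, so a member of low level could reach fewer classes.

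Clusters within a class did not all hold the same level. The 3 microglial clusters lay between 2906 and 3044 CPM at 14 dpi and between 902 and 1269 CPM at 3 dpi, so the difference stood in each of them. In the ActD sham they lay between 2339.9 and 4659 CPM. The 2 microglial clusters of the standard sham, which come from a separate run that integrated it with the ActD sham, held 621 and 944 CPM.

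Neutrophils at 3 dpi were mostly in 1 cluster (1699 of 1816 cells, 1101 CPM), and at 14 dpi mostly in another (924 of 1228 cells, 1673 CPM). Within the latter cluster alone, 11 of 35 members were called higher and 2 lower (all genes 16.3% and 17.8%), with a median of 0.66, and within the former 32 of 33 and 0 (16.3% and 17.5%), with a median of 4.28. The median of all genes was itself -0.66 in the latter cluster and -0.63 in the former. Most of the 0.66 in the latter thus came from centring. The sum was 1.23-fold (1.14 to 1.33) in the latter and 12.2-fold (11.8 to 12.6) in the former. The 304 cells at 14 dpi that shared the main 3 dpi cluster held 13437 CPM. An unnamed cluster of 198 cells at 14 dpi had Camp, Ngp and Ltf among its leading genes and held 376 CPM. It was not counted among the neutrophils, so the neutrophil values do not include it. The 10 neutrophil markers, among them S100a8, S100a9 and Retnlg, summed to 54929 CPM at 3 dpi and 391812 CPM at 14 dpi, beside 330504 and 381533 CPM in the shams, and all 10 were detected in each library. Their part in the member ratios of neutrophils was not tested.

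B cells at 14 dpi fell into a cluster of 284 cells with 2823 CPM and a cluster of 209 cells, led by the precursor genes Vpreb1 and Igll1, with 831 CPM. The latter cluster held fewer than 20 cells at 3 dpi. Cell cycle genes summed to 192 CPM in B cells at 3 dpi and 3390.3 CPM at 14 dpi. T cells at 14 dpi held 6428 CPM in the main cluster (577 cells) and 2016 CPM in the cluster led by Trdc, a gamma-delta T cell gene (119 cells).

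Markers of another class differed along with some of these results. The 10 microglia markers summed to 944 CPM in injury macrophages at 3 dpi and 5978 CPM at 14 dpi, and to 1006 and 6244 CPM in border macrophages, with all 10 detected in each, and 5736 and 11446 CPM in microglia themselves. Their part in the member ratios was not tested. The injury macrophage markers were higher at 3 dpi than at 14 dpi in all 10 classes. In T, NK and B cells they summed to between 2439 and 2934 CPM at 3 dpi and between 54.6 and 95.8 CPM at 14 dpi. In microglia they summed to 6386 CPM at 3 dpi, more than the microglia markers there, and to 1250 CPM at 14 dpi. The part of these markers in the member ratio of microglia was not tested either. The member sum of border macrophages at 14 dpi was above that of microglia, and that of injury macrophages was below it.

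Each injured library and the standard sham were next set against the ActD sham, which shares the dissociation of the injured libraries. These comparisons share that 1 library, so their directions are not independent. At 3 dpi the summed level was lower than in the ActD sham in all 5 classes: 21 of 37 members were called lower in microglia (2 higher, all genes 17.1% lower and 22.6% higher), 35 of 36 in border macrophages (all genes 14.1%), 34 of 37 in monocytes (0 higher, all genes 16.7% lower and 20.2% higher), 32 of 33 in neutrophils (21% lower) and 24 of 25 in B cells (10.1%). Monocytes of the 3 dpi and ActD sham libraries also differed in markers, as given above. The sum at 3 dpi was 0.391 of the ActD sham in microglia (interval 0.385 to 0.398) and 0.108 (0.0948 to 0.122) in B cells. In microglia this held for female cells, with a sum of 0.326 and 26 of 36 members lower (3 higher, all genes 17.3% and 20.4%), but male microglia had a sum of 0.968 (0.939 to 0.998), with 3 of 35 lower and 7 higher (16.9% and 22.4%). The median of all genes was itself -0.53 in female and -0.52 in male microglia, so centring raised every member there. The sexes are described further below.

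At 14 dpi the classes diverged from the ActD sham in different directions. Microglia had 12 of 37 members higher and 0 lower (all genes 11.1% and 6.76%), with a median of 0.71 and a sum of 1.11-fold (1.09 to 1.12). The median of all genes was itself -0.54 in microglia, so most of the 0.71 came from centring. Border macrophages had 1 higher and 1 lower of 37 (5.25% and 4.37%) and monocytes 0 higher and 4 lower of 37 (8.4% and 7.59%). Neutrophils had 1 higher and 21 lower of 35 (7.09% and 4.74%), with a sum of 0.328, and B cells 0 higher and 35 lower of 36 (15.2% and 10.6%), with a sum of 0.196. These lower calls were mostly absent among female cells alone, with 1 higher and 3 lower of 32 in neutrophils (10% and 7.56%, sum 0.994, 0.952 to 1.04) and 2 higher and 3 lower of 25 in B cells (5.85% and 8.43%, sum 1.15, 1.07 to 1.23). Male cells made up 87.4% of neutrophils and 89.5% of B cells with a call at 14 dpi, beside 34.6% and 22% in the ActD sham, where fewer than 20 male cells of either class were found. Male and female cells of both classes were also spread differently over clusters at 14 dpi, as given below. The part of sex or cluster in these calls was not tested.

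With both sexes together, the standard sham lay under the ActD sham in each class, and the sexes are given apart below. There were 23 of 36 members lower and 1 higher in microglia (all genes 8.95% and 10.3%), 27 and 0 of 36 in border macrophages (6.74% and 9.78%), 32 of 37 in monocytes (11.3%), 32 of 32 in neutrophils (9.28%) and 29 of 30 in B cells (6.88%). In microglia the sum was 0.285 of the ActD sham (0.280 to 0.291). Immediate early genes, which dissociation without ActD is known to induce, summed to 43173 CPM in microglia of the standard sham and 814 CPM in the ActD sham. Their part in the member difference was not tested.

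Since each library held cells of both sexes, cells with a UMI of a Y-linked gene (Ddx3y, Eif2s3y, Kdm5d or Uty) and none of Xist were called male and the reverse female. Female microglia carried 4170.2 CPM of the members in the ActD sham, beside 1061 CPM in male microglia, a 3.93-fold difference (3.83 to 4.04). At 14 dpi the values were 4369 and 1752 CPM, a 2.49-fold difference (2.46 to 2.53). In the standard sham they were 745 and 796 CPM (0.936-fold, 0.903 to 0.970), and at 3 dpi 1361 and 1027 CPM (1.33-fold, 1.28 to 1.37).

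Female microglia thus held the higher sum in 3 libraries, by most in the ActD sham and at 14 dpi, although the difference between libraries was not tested. In the ActD sham 32 of 35 members tested were higher in female microglia and 0 lower (all genes 4.53% and 1.04%), and in the standard sham 1 was higher and 2 lower of 32 (0.733% and 0.535%). At 14 dpi it was 29 higher and 0 lower of 37 (1.47% and 0.596%), and at 3 dpi 3 higher and 0 lower of 35 (0.716% and 1.7%).

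Female cells were also higher at 14 dpi in monocytes, at 18893 CPM beside 4426 CPM in male cells (4.27-fold, 36 of 37 members higher, all genes 5.46%), and in neutrophils, at 9122 and 1108 CPM (8.23-fold, 31 of 33 members, 8.92%). In B cells they held 9221 CPM in 32 female cells and 802 CPM in 274 male cells (11.5-fold, 20 of 20 members, 13%). The sexes were spread unevenly over the clusters described above. The precursor B cell cluster held 141 of these male and 4 of these female cells. The neutrophil cluster with 13437 CPM held 49 of 422 male and 28 of 61 female cells. The part of clusters in the sex differences was not tested. T cells showed little of this, at 6746 and 4489 CPM (1.5-fold, 1 member of 37 higher and 3 lower, 2.5% and 1.35%). At 3 dpi, monocytes held 1548 and 1392 CPM and neutrophils 1432 and 927 CPM in female and male cells. In standard sham monocytes the order was the reverse, with 3217 CPM in 169 female and 6939 CPM in 22 male cells.

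**Figure D4:**
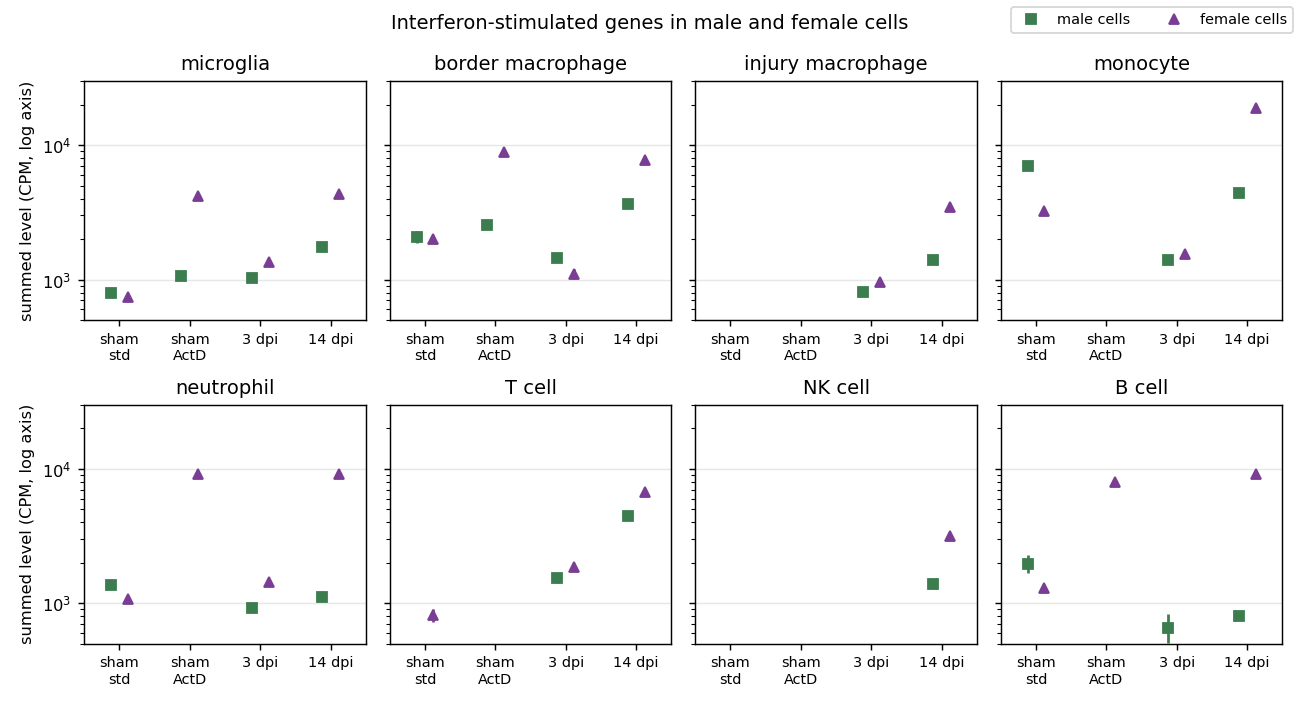
Summed level of the members (CPM, log axis) in female and male cells of 8 classes in each library where that sex had at least 20 cells, with 95% Poisson intervals. Where both are drawn, female points lie above male points in the ActD sham and at 14 dpi, and at 3 dpi they lie between 806 and 1864 CPM.

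Shares of male cells differed between the libraries: 44.7%, 46.0%, 74.8% and 46.7% of microglia with a call, 87.4% of neutrophils at 14 dpi beside 49.8% at 3 dpi, and 89.5% of B cells at 14 dpi beside 67.3% at 3 dpi. Among male cells alone, the sum at 14 dpi was 1.71-fold that at 3 dpi in microglia (1.67 to 1.74), 2.50-fold in border macrophages, 1.74-fold in injury macrophages, 3.18-fold in monocytes and 2.91-fold in T cells. In male neutrophils it was 1.2-fold (1.11 to 1.29). In male cells 13 of 37 members were called higher in microglia and 0 lower (all genes 9.16% and 13.5%), and 22 of 35 in monocytes and 1 lower (11.3% and 14.5%).

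Among female cells alone the ratios were larger, at 3.21-fold in microglia (3.12 to 3.30), 7.02-fold in border macrophages, 3.62-fold in injury macrophages, 12.2-fold in monocytes, 6.37-fold in neutrophils and 3.62-fold in T cells. In female cells 32 of 37 members were called higher in microglia and 0 lower (11.8% and 13.7%), and 37 of 37 in monocytes (14%). Female microglia at 14 dpi held 1.05 times the sum of female microglia in the ActD sham (1.03 to 1.06), and male microglia 1.65 times that of male ones (1.61 to 1.70).

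In male microglia the standard sham and the ActD sham differed less, with 3 of 32 members higher and 0 lower in the standard sham (all genes 9.39% and 6.93%) and a sum of 0.751. The median of all genes was itself -0.57 in that pair, so centring raised every member. The median member was -0.04 after centring. In female microglia 29 of 35 were lower and 1 higher (9.68% and 9.22%), and the sum was 0.179. Male border macrophages had 3 of 14 lower and 1 higher (9.3% and 10.1%) and a sum of 0.827. Female border macrophages had 33 of 35 lower and 0 higher (7.97% and 9.85%) and a sum of 0.225. The methods give the mice of each sex used in all but not how many gave each library, so sex and the single animals that gave the cells cannot be told apart.

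The pathway above the members was described from lists of its genes. Of the interferon ligands, Ifng was the 1 with 20 UMIs or more in any class at 3 and 14 dpi together. The shams were not searched by class. It was 47.1 and 63.7 CPM in T cells at 3 and 14 dpi (centred 0.26), 40.5 and 117 CPM in NK cells (centred 1.35, from 5 and 175 UMIs) and 0.276 and 0.518 CPM in microglia. Over all cells kept, Ifnb1, the gene of interferon beta, had 42 UMIs in the standard sham, 0 in the ActD sham, 6 at 3 dpi and 1 at 14 dpi. Ifnk had 1 UMI in each injured library, and Ifna1, Ifna2, Ifna4, Ifne, Ifnl2 and Ifnl3 had 0 in all 4 libraries. At this depth few type I interferon RNAs were detectable, which does not show their absence.

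The type I receptor genes were mostly under the 2-fold line. Ifnar1 was 43.5 and 65.2 CPM at 3 and 14 dpi in microglia (centred 0.58) and 76.6 and 76.0 CPM in monocytes (centred -0.28), and Ifnar2 was 93.1 and 186 CPM in microglia (centred 0.99). Ifnar1 was called higher in NK cells only, from 3 and 114 UMIs. The receptor for interferon gamma was higher in more classes: Ifngr1 was 127 and 343 CPM in microglia (centred 1.43) and 172 and 491 CPM in monocytes (centred 1.24), and Ifngr2 58.6 and 196 CPM in injury macrophages (centred 1.60). Ifnlr1, part of the receptor for type III interferon, was at 6.92 and 22 CPM in neutrophils (centred 2.78) and under 20 UMIs in every other class.

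Of the 11 signalling genes listed, which include Usp18, Stat2 and Irf9 of the members, 7 were higher and 1 lower in monocytes (all genes 11.8% and 14.6%). In microglia it was 4 and 1 of 11 (10.9% and 15.1%). The feedback inhibitors parted ways, with Socs3 lower in microglia at 218 and 13.3 CPM (centred -4.04) and Socs1 higher in monocytes at 2.22 and 13.6 CPM (centred 2.32). Jak1 was under 2-fold in microglia at 122 and 168 CPM (centred 0.46).

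Of the genes known to be induced by interferon gamma, part were called higher: 10 of 13 tested in monocytes, 8 of 11 in border macrophages, 7 of 13 in microglia and 3 of 12 in T cells, with 0, 0, 2 and 1 lower. Among all genes in these classes 11.8%, 10.6%, 10.9% and 4.62% were higher and 14.6%, 10.9%, 15.1% and 7.87% lower. Cxcl9, a chemokine for T cells, was 0.460 and 17.0 CPM in microglia (log2 ratio 5.21 (95% interval 4.33 to 6.28), centred 5.14). Cxcl10, its relative that type I interferon and inflammatory signals also induce, was lower at 14 dpi in microglia at 171 and 67.2 CPM (centred -1.35) and in neutrophils at 148 and 8.91 CPM (centred -2.91). The GTPase Irgm1 was higher in monocytes at 7.81 and 99.4 CPM (centred 3.39) and in microglia at 11.1 and 35.5 CPM (centred 1.67).

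Immediate early genes were lower at 14 dpi than at 3 dpi in all 10 classes, by 13 of 14 genes in microglia (all genes 15.1%) and 10 of 14 in monocytes (14.6%). Their summed level was 43173, 814, 5133 and 667 CPM in microglia and 11279, 3181, 9636 and 4779.6 CPM in monocytes. It was therefore lowest or next to lowest in the 2 libraries with the highest summed ISG level in CPM, and its part in the member ratios was not tested. The sensing genes upstream of interferon (Toll-like receptors, cGAS, STING and their adaptors and factors) had 2 of 10 higher and 0 lower in microglia (all genes 10.9% and 15.1%). It was 5 and 0 of 10 in monocytes (11.8% and 14.6%), 3 and 1 of 9 in border macrophages (10.6% and 10.9%) and 3 and 0 of 9 in injury macrophages (13.5% and 13.4%). Neutrophils had 0 and 1 of 9 (19.5% and 20.7%), T cells 0 and 1 of 8 (4.62% and 7.87%) and B cells 0 and 2 of 7 (18% and 16.4%). NK cells had 1 and 0 of 6 (11.8% and 10.2%), and each DC class 0 and 0 of 4.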

How the data were processed

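CD45+ cells of the mouse spinal cord were measured in 4 libraries. The deposited values are UMI counts per gene and cell, which the authors made with Cell Ranger on build mm10, per the submitters' processing notes, and did not normalize. By the matrix headers, version 3.1.0 was used at 14 dpi and in the ActD sham, and version 3.0.1 in the other two. Each matrix holds 1 library, and 0 columns of per-sample values were unused.

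The files held 6827 (standard sham), 2439 (ActD sham), 10763 (3 dpi) and 11631 (14 dpi) barcodes. Cells under 600 genes or over 10% mitochondrial UMIs were dropped. Doublets were the cells with the highest Scrublet scores (Scanpy 1.11.5), 0.8% per 1000 cells, which removed 263, 39, 726 and 947 cells. Cells with UMIs of both Itgam and a T, B or NK cell marker (410, 26, 540 and 870) were also removed. The cells kept held 49207139, 25848114, 100019938 and 102756720 UMIs. Seurat 5.3.0 (R 4.3.3) integrated the 3 ActD libraries (2000 features without the members, k.filter 200, 50 dimensions, resolution 0.6). The standard sham was clustered in a separate run, integrated with the ActD sham. Cells of the ActD sham took their names from the first run only. A cluster took a class name where at least 3 of its markers were in at least 25% of its cells, with a relative level of at least 0.5 (log2), and its 10 leading genes did not go against the name. These thresholds were set after the clusters were seen, so values may differ from the study's because names were rebuilt.

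UMIs were summed by class and library (Python 3.11.15, NumPy 2.4.6, SciPy 1.17.1). With 1 library per group there was no test. Intervals are exact Poisson, conditional Poisson or Clopper-Pearson at 95%. A count of 0 was read against a floor of 3 counts, and these cover counting error only. Ratios and the thinning were tested on simulated data, and the shares of high cells were not. The members and lists were chosen with earlier results of these data known. Genes were named by a fixed rule: in each class, the 3 members with most UMIs, the 3 of largest and the 3 of smallest centred ratio, then pathway genes with 20 UMIs or more, ligands and receptors first. Members outside that rule were named after their values were seen. Alternatives were plain CPM, TMM factors (edgeR 4.0.16), other minimums, folds, cell filters, clusterings, depths and each sex apart. Some genes are not reported here.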

Additional observations from a re-analysis of the deposited data

Results flagged for a closer look

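The members of 3 classes stood in different directions from the ActD sham at 14 dpi. The median centred log2 ratio of the members, 14 dpi over the ActD sham, was 0.71 in microglia, -1.26 in neutrophils and -2.45 in B cells. These values drew attention because classes of the same 2 libraries lay on opposite sides of all genes. The median of all genes in that pair was itself -0.54 in microglia, -0.06 in neutrophils and 0.03 in B cells. Most of the microglial 0.71 thus came from centring, and the microglial sum was 1.11-fold. With 1 library per time point, the difference between the classes was not tested. Among female cells alone the medians were 0.56 in microglia, -0.13 in neutrophils and 0.17 in B cells, so most of the distance between the classes was absent there. Female cells alone also had another mix of clusters at 14 dpi. The precursor cluster held 4 of the 32 female B cells, beside 209 of all 493. The main 3 dpi neutrophil cluster held 28 of the 61 female neutrophils, beside 304 of all 1228. In the ActD sham these clusters held 8 and 2 cells. The part of sex or cluster was not tested. Male neutrophils and B cells numbered fewer than 20 in the ActD sham and gave no value.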

How the results depend on the processing

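Of 111 settings of the count of members called higher at 14 than at 3 dpi, 89 gave a count within 1.5 times of the reported one, and the median member was above 0 in 105. The summed level was higher at 14 dpi in 40 of 40 pairs of class and setting, and the share of high cells in 70 of 70. Among the 40, male B cells had a 1.22-fold sum with an interval of 0.964 to 1.58. The 70 leave out the other draws of the thinning, whose ranges at 3 and 14 dpi overlapped in plasmacytoid DCs. With male cells only, the counts were 13 of 37 (microglia), 17 of 28 (border macrophages), 13 of 34 (injury macrophages) and 22 of 35 (monocytes). They were 19 of 31 in neutrophils and 1 of 13 in B cells. Among all genes 9.16%, 9.67%, 12.2%, 11.3%, 18.6% and 22.8% were higher in these classes, in that order. Lower calls were 0, 0, 1, 1, 0 and 5, beside 13.5%, 11.3%, 13.9%, 14.5%, 19.4% and 19.7% of all genes. The median member of male B cells was -0.61. With plain CPM the counts of higher members were 19 in neutrophils and 4 in plasmacytoid DCs. With at least 50 UMIs they were 9 (migratory DCs), 0 (plasmacytoid DCs), 14 (NK cells) and 2 (B cells), where fewer members are tested. With no minimum they were 9 in plasmacytoid DCs and 12 in B cells, and with a fold of 1.5 they were 6 and 7. In B cells the count was 2 with stricter cell filters and 10 with no doublets removed. With coexpressing cells kept it was 7 in migratory DCs and 9 in B cells. After the data were seen, single clusters were added: 11 for the main 14 dpi neutrophil cluster and 12 for B cells without their precursor cluster. Except for those settings whose construction removes cells or members, the cause was not tested.

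Set against the ActD sham, lower calls at 3 dpi were 8 in microglia with each library clustered alone, which named 436 ActD sham cells microglia, and 1 in the standard sham. In border macrophages at 14 dpi they were 4 with plain CPM and 5 with each library alone. With each sex apart, also added after the data were seen, lower calls at 3 dpi were 3 in male microglia and 10 in male border macrophages, those at 14 dpi 0 in male border macrophages and 3 each in female neutrophils and female B cells, and those of the standard sham 0 in male microglia and 3 in male border macrophages. The microglial sum at 3 and 14 dpi was 803 and 2409.7 CPM without the member with most UMIs, 932 and 2982 CPM with each library alone, 1027 and 1752 CPM in male cells and 1361 and 4369 CPM in female cells, and with no doublets removed it was 1021 CPM at 3 dpi. The microglial share of high cells at 3 and 14 dpi was 4.99% and 34.6% at 2000 UMIs, 58.9% and 81.5% without thinning, 8.11% and 37.1% with 3 members or more, and 0.939% and 3.59% with 8 or more. It was 0.974% at 3 dpi with each library alone, and 4.53% in male and 27.6% in female cells at 14 dpi. Other draws of the thinning were also added after the data were seen.

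No paired analysis was possible because each group has 1 library. Library, time point and software version cannot be told apart, and classes of under 50 cells, such as plasmacytoid DCs, rest on few UMIs per gene.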

Other observations

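Cells in no comparison above also carried the members. At 14 dpi, 402 cells named cDC2, conventional DCs that present antigen to helper T cells, held 6183 CPM, and 36.6% of them were high cells. An unnamed cluster of 41 cells at 14 dpi, with Mgp, Cldn5 and Col1a2 among its leading genes, held 6062 CPM. Another of 198 cells held 376 CPM, under every class named at that time. Its leading genes included Fcnb, Camp, Ngp, Lcn2 and Ltf, and it was not counted among the neutrophils. The cDC2 cells came from a cluster shared with 2 more libraries, where it took no name, and which held 5261 CPM in 28 cells of the ActD sham and 1549 CPM in 535 cells at 3 dpi. Myeloid progenitors held 691 CPM in the standard sham, 4648 CPM in 47 cells of the ActD sham and 1294 CPM at 14 dpi.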
